A study of Homo sapiens with 18 samples.

Results

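MDA-MB-231 is a human triple negative breast cancer line, and KO1 and KO2 are the pools of that line in which GPS2 was targeted by CRISPR-Cas9 with different sets of sgRNAs. The comparison described here sets the 3 untreated KO1 libraries against the 3 untreated KO2 libraries, 6 of the 18 libraries of the series, over 15587 of the 57448 genes in the deposited count matrix, namely every gene that had 1 CPM or more (counts scaled to library size) in no fewer than 3 libraries. The WT group is the parental line, and the KO1+MK and KO2+MK groups are the pools given 10 µM MK2206, an allosteric AKT inhibitor, for 4 h, with 3 libraries in each group. The sgRNAs of both sets were aimed at exons 2 and 6 of GPS2, were delivered with Cas9 by lentivirus under puromycin selection, and gave pools that were kept mixed, with no clone picked. As far as the labels say each pool is 1 transduced population, so the guide set, the transduction and the later passage of a pool coincide and cannot be told apart, and nothing states that the 3 libraries of a group came from separate cultures, so p-values measure only the spread between these libraries.

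GPS2 is a subunit of the nuclear corepressor complex built on NCOR1, HDAC3 and the TBL1 proteins, which keeps many inflammatory and metabolic promoters silent. It also inhibits UBC13, the enzyme that builds K63-linked ubiquitin chains, and thereby restrains signalling through the TNF receptor, Toll-like receptors and AKT. NF-kB, the transcription factor family downstream of those receptors, drives chemokine, cytokine and adhesion genes that MDA-MB-231 cells express at rest.

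GPS2 lies on the minus strand at chr17:7311324-7315564 (hg38). The coding bases of exon 2 and exon 6 of its canonical transcript, which has 11 exons in GENCODE, are shown because the guides of both pools were aimed at exons so numbered in the study, which are taken here to be those of this transcript. The guides themselves are not shown. The coding bases of the exons lie at chr17:7314959-7315052 and chr17:7313906-7313988 and are printed 5′ to 3′ on the strand of the gene.
GPS2 exon 2, coding bases: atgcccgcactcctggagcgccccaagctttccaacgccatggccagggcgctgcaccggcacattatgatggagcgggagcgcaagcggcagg
GPS2 exon 6, coding bases: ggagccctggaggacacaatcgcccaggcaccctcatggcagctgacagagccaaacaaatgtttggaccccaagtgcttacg

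GPS2 RNA was 4.53, 4.46 and 4.51 CPM in the KO1 libraries and 5.90, 6.09 and 6.14 CPM in the KO2 libraries. The pools did not overlap, and WT, at 4.40, 4.89 and 4.42 CPM, lay at the level of KO1. The log2 fold change of KO1 against KO2 was -0.44 ± 0.09 (SE, n = 3 libraries a pool), with an adjusted p of 0.00125 in edgeR's quasi-likelihood test. That p missed the threshold of 0.001 used throughout, which is read together with a fold change of at least 1.5. With library totals in place of TMM normalization the adjusted p was 0.000952, and the fold change still fell short. Counts are summed over the whole gene, so they do not show whether either exon was cut. The paper checked the loss of GPS2 by western blot and genomic PCR, and RNA counts do not measure protein. GPS2 RNA was lower in neither pool by the test against WT, and KO2 lay above WT without overlap (log2 0.40, adjusted p = 0.00221, edgeR).

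Total counts were 35627965 to 39319910 in the untreated KO libraries, 33725461 to 37128614 in WT and 23419198 to 29939536 in the treated KO libraries. Replicates of a pool correlated at Pearson's r of 0.996 to 0.997 across genes (log2 CPM, untreated) and 0.992 to 0.997 (treated). The 11 MDA-MB-231 identity genes, among them VIM, CD44 and AXL, summed to 4459 to 4556 CPM in KO1 and 4835 to 4902 CPM in KO2. CDKN2A, a member of that list, was at 0 in every group but KO1. Leukocyte markers summed to 2.21 to 2.84 CPM in KO1 and 2.79 to 3.00 in KO2. The 10 basal epithelial markers summed to 110 to 115 CPM in KO1, 115 to 125 CPM in KO2 and 76.7 to 84.1 CPM in WT. Of these, KRT5, KRT6A, KRT6B and DSG3 were at 0 in both pools. The 16 luminal epithelial markers summed to 931 to 950 CPM in KO1, 739 to 794 CPM in KO2 and 942 to 1005 CPM in WT, and CDH1, which defines the type, was at 0 in KO1. Of the 13 luminal markers tested, AGR2, a protein disulfide isomerase, and FOXA1, a pioneer factor, were called higher in KO1, beside 1.87% of all genes. With MK2206 AGR2 was called too and FOXA1 was not (log2 0.22, adjusted p = 0.143, edgeR). The part of such cells in the results was not tested. Across 15511 genes the log2 fold change had a Spearman correlation of 0.16 with transcript GC content untreated and 0.047 treated, and the part of GC content in the results was not tested.

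KO1 and KO2 differed in 408 genes. Higher expression in KO1 was the more frequent direction, with 292 genes (1.87% of those tested) against 116 genes higher in KO2 (0.744%). Among them were 152 genes higher in KO1 by at least 2-fold and 46 by at least 4-fold, and 50 and 10 such genes higher in KO2. Protein-coding genes made up 268 of the 292 and 97 of the 116, and lncRNAs 14 and 15. At the adjusted p of 0.001 alone, 1100 genes were higher in KO1 (7.06%) and 864 in KO2 (5.54%). The 3 KO1 libraries did not overlap with the 3 KO2 libraries for any of the 408 genes, where over all genes tested KO1 lay wholly above KO2 in 25.4% and wholly below it in 20.3%. The 408 were called from these same libraries, so their separation is no further evidence. In bulk RNA, a smaller share of cells that express a gene and less RNA per cell cannot be told apart. Of the 408 genes, 376 reached 1 CPM in at least 3 of the 6 libraries, and 3 called genes passed the filter only through KO1 and 2 only through KO2. Just inside the fold threshold were NFKBIE and PCDHGC3 (both 0.59), and just outside it TFAP2C (-0.58) and IKBKE (0.58).

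The 10 largest differences among genes higher in KO1 with a mean of at least 100 counts were MAGEA12, PRDM9, ANKRD30A, VAT1L, DCAF8L2, TLR2, ULK2, C3, RIMBP2 and CXCL8, with log2 fold changes from 2.23 to 4.90. MAGEA12, a cancer testis antigen at chrX:152733757-152737669, was 3.77, 4.27 and 4.54 CPM in KO1 and 0.143, 0.181 and 0.0818 CPM in KO2. WT libraries held 0.0880, 0.0275 and 0.0538 CPM, so KO1 was the group that stood apart, and KO1 exceeded KO2 by 29.9-fold (log2 4.90 ± 0.24, adjusted p = 1.56e-10, edgeR). ANKRD30A, the breast differentiation antigen NY-BR-1, likewise was high in KO1 alone, at 8.49, 7.14 and 7.86 CPM against 0.602, 0.619 and 0.518 CPM in KO2 and 0.781 to 1.10 CPM in WT (13.3-fold between pools, adjusted p = 1.31e-11, edgeR). PRDM9, the methyltransferase that marks sites of meiotic recombination, showed the other arrangement, with 4.33 to 5.72 CPM in WT, 2.93 to 3.06 CPM in KO1 and 0.0818 to 0.315 CPM in KO2. ULK2, a kinase that starts autophagy, was 3.02 to 3.98 CPM in KO1 and 0.464 to 0.688 CPM in KO2, with WT at 5.38 to 7.19 CPM.

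Among genes higher in KO2, IL13RA2, a decoy receptor for interleukin 13 at chrX:115003975-115019977, differed most. It was 18.2, 18.88 and 18.95 CPM in KO2 and 0.501, 0.271 and 0.249 CPM in KO1, a 54.4-fold difference (log2 -5.77 ± 0.13, adjusted p = 1.71e-14, edgeR). WT lay at 0.470, 0.275 and 0.269 CPM, within the range of KO1, and the treated libraries repeated the gap, with 15.02 to 17.8 CPM in KO2+MK and 0.148 to 0.344 CPM in KO1+MK. NGFR, the p75 neurotrophin receptor, was 7.56, 9.0 and 9.19 CPM in KO2, 1.27, 1.19 and 1.14 CPM in KO1 and 0.962 to 1.24 CPM in WT. TBX3, a T-box repressor, was 10.1, 8.77 and 8.10 CPM in KO2 and 1.34, 1.51 and 1.91 CPM in KO1, on either side of WT at 2.58 to 3.02 CPM. The other genes of this group were L3MBTL4, a chromatin protein, SH2D2A, a T cell adapter, CDK15, a cyclin-dependent kinase, XAGE1A and 3 genes with no symbol, with log2 fold changes from -2.62 to -1.84. XAGE1A was uneven within pools, at 0.573, 3.40 and 4.58 CPM in KO2, against 0.406 to 0.526 CPM in KO1, and 13.03, 0.297 and 0.653 CPM in KO1+MK. Its call was lost with DESeq2 (adjusted p = 0.00639) and in edgeR fits of 18 or 12 libraries (0.0826 and 0.0789). It was also lost without any one of the KO1 libraries or KO2 replicate 2 or 3 (0.00101 to 0.00716). Every 75-base word of its transcript also occurs in another gene, so its reads cannot be assigned to it.

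**Figure D1:**
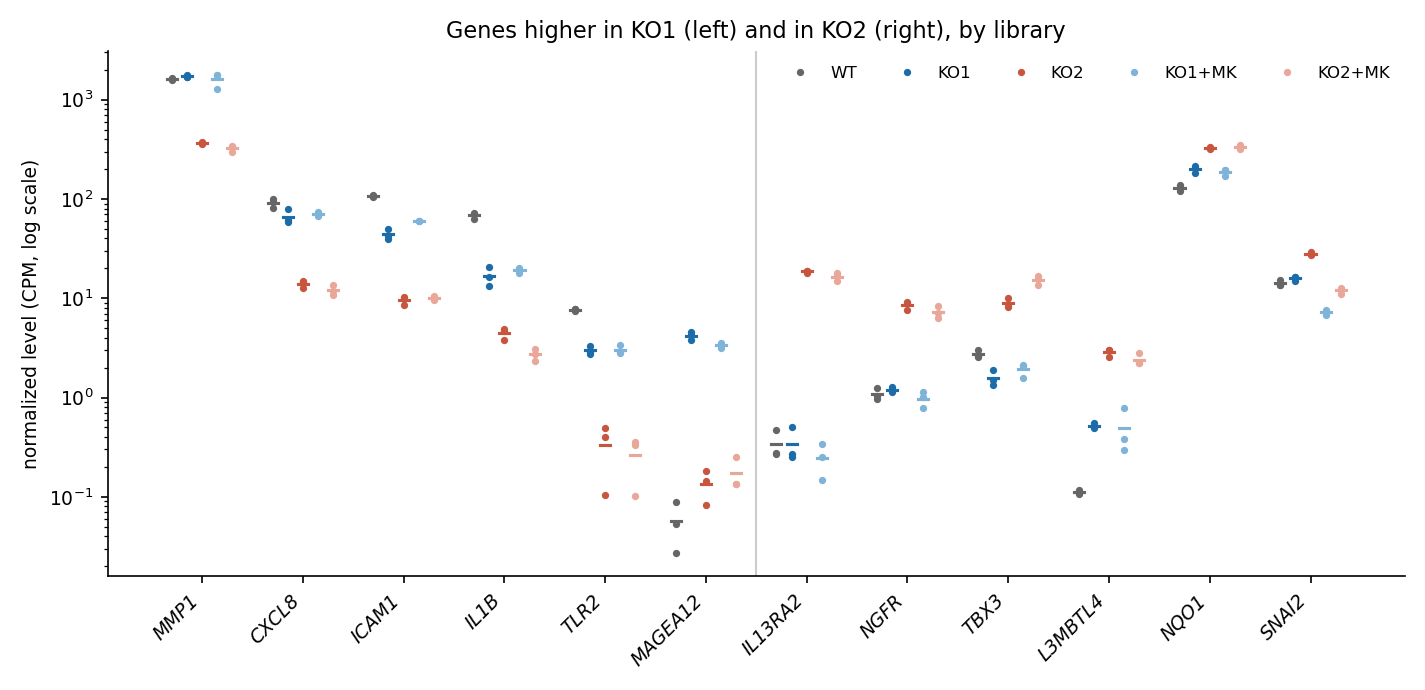
Normalized level in CPM on a log scale of 12 genes in each of the 3 libraries of WT, KO1, KO2, KO1+MK and KO2+MK, with a bar at each mean. The 6 genes on the left were higher in KO1 and the 6 on the right higher in KO2, and for all of them the treated pools stand apart in the direction of the untreated ones.

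The cancer testis antigens MAGEA3 and MAGEA6, paralogs on Xq that are named here after their values were seen, moved in opposite directions. MAGEA6 was 32.0, 31.7 and 30.1 CPM in KO1 and 7.39, 7.66 and 7.12 CPM in KO2, while MAGEA3 was 7.88, 7.44 and 7.25 CPM in KO1 and 25.7, 27.1 and 25.7 CPM in KO2. Both exceeded WT (5.58 to 5.63 and 2.55 to 2.82 CPM) in every library of either pool. Of the 75-base words of the MAGEA3 transcript, 42.2% also occur in another gene, against 0.175% for MAGEA12, so the split of reads between MAGEA3 and MAGEA6 is uncertain.

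Chemokines and cytokines formed the group with the largest share of members higher in KO1. Of 23 tested, 12 were called higher in KO1 and 0 in KO2, beside 1.87% and 0.744% of all genes tested. Their median log2 fold change was 0.68, and that of all genes -0.00087. CXCL8, the neutrophil chemokine interleukin 8 at chr4:73740519-73743716, was 61.4, 79.5 and 58.6 CPM in KO1 and 14.5, 12.7 and 14.97 CPM in KO2 (4.70-fold, adjusted p = 5.06e-11, edgeR). WT was higher than both pools, at 80.5 to 99.1 CPM. CXCL1, which binds the same receptor as CXCL8, was 12.9, 14.6 and 11.8 CPM in KO1 and 3.21, 2.68 and 3.05 CPM in KO2, and its neighbours CXCL3 and CXCL2 differed by 4.14-fold and 3.02-fold. CCL2, a monocyte chemokine, was 29.6, 28.2 and 37.8 CPM in KO1, 9.17, 6.68 and 6.93 CPM in KO2 and 13.8 to 15.1 CPM in WT, so that the pools lay on either side of the parental line.

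Several interleukins and the colony stimulating factors were called higher in KO1 too. IL1B was 16.2, 20.6 and 13.3 CPM in KO1 and 3.78, 4.95 and 4.69 CPM in KO2, both far below WT at 62.5 to 71.9 CPM. IL1A and IL6 differed by 1.69 ± 0.19 and 1.92 ± 0.19 on the log2 scale, and IL32 by 1.45 ± 0.26. CSF3 and CSF2, which drive granulocyte and macrophage production, were 3.59-fold and 3.31-fold higher in KO1, and CSF1, the macrophage factor and one of the 5 most abundant genes called, was 398 to 410.1 CPM in KO1 and 243 to 290.0 CPM in KO2 (1.53-fold). Without KO2 replicate 2 or 3 the log2 fold change of CSF1 was 0.57 or 0.58, just under the threshold. IL11, which acts through gp130, lay the other way, at 97.3 to 106 CPM in KO1 and 120.3 to 131 CPM in KO2 (log2 -0.30, adjusted p = 6.89e-06, edgeR), below the fold threshold, and IL7 was not called.

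Of 28 inflammatory and NF-kB genes tested, 10 were called higher in KO1 and 0 in KO2 (1.87% and 0.744% over all genes), and the median log2 fold change was 0.44. TLR2, the receptor for bacterial lipoproteins, was 2.87, 3.30 and 2.77 CPM in KO1 and 0.401, 0.103 and 0.491 CPM in KO2, with WT above both at 7.36 to 7.87 CPM. ICAM1, the ligand that leukocyte integrins bind, was 42.3, 50.2 and 39.6 CPM in KO1 and 9.88, 8.51 and 10.4 CPM in KO2, with WT at 105 to 111 CPM. C3, the central complement protein, was 2.22 to 3.19 CPM in KO1 and 0.372 to 0.516 CPM in KO2. The others called were PTGS2, which makes prostaglandins, BIRC3, RELB, TRAF1, and the feedback inhibitors TNFAIP3, NFKBIA and NFKBIE. The transcription factors RELA (log2 0.25) and NFKB1 (0.19) were not called.

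Together 22 genes of both lists were called higher in KO1, on 12 chromosomes. Each of the 22 was called lower in KO2 than in WT and 8 lower in KO1 than in WT, where over all genes tested these shares were 11.2% and 9.28%. The 22 were chosen for KO2 lying below KO1 in the same libraries, so nothing is read from this: of all 292 genes higher in KO1, 244 were called lower in KO2 and 100 lower in KO1. CCL2 was the 1 gene of the 22 called higher in KO1 than in WT (4.59%), and 5.56% of all genes were called higher in KO2 than in WT. The mean of WT was at or above that of KO1 in 18 of the 22. With another test, normalization, filter, fit, threshold or library left out, 10 to 14 chemokines and cytokines and 8 to 19 inflammatory and NF-kB genes were called higher in KO1.

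**Figure D2:**
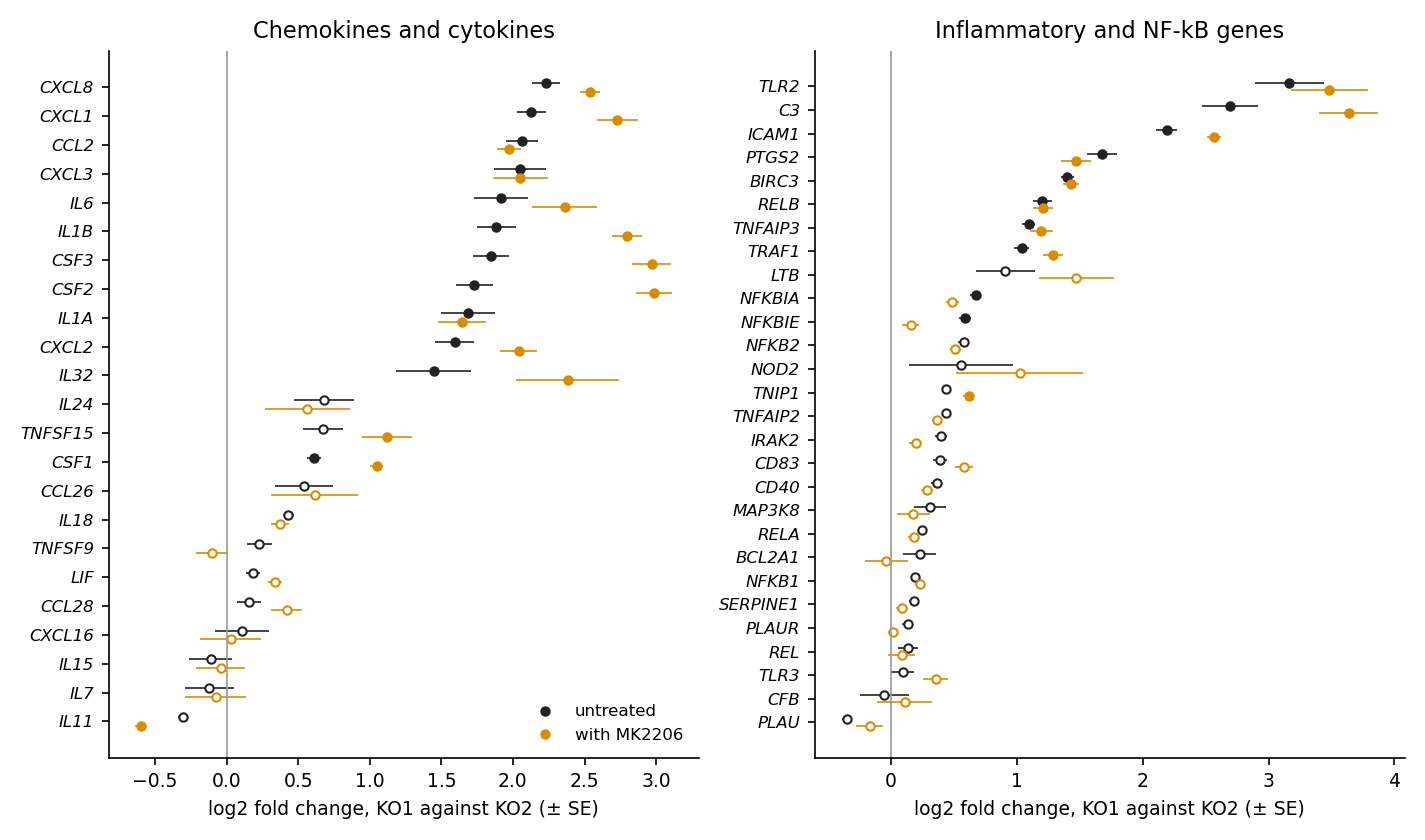
Log2 fold change of KO1 against KO2 with its standard error for the 23 chemokines and cytokines (left) and the 28 inflammatory and NF-kB genes (right) tested, untreated in black and with MK2206 in orange. Filled points were called, open points were not, and 20 of the 22 members called untreated were also called with MK2206.

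The sequence just before the start site is shown for the 6 of these 22 genes whose RefSeq promoter (GRCh38.p14) holds GGAANTTCC, a form of the NF-kB site that reads alike on both strands, within 250 bases before the start. A promoter was found for 16 of the 22. Of the 22 members tested but not called, with a promoter, 3 held the word, and of 11024 promoters of genes tested 0.862% did. The lists were made to include NF-kB targets, and the stretches of CXCL1, CXCL2 and CXCL3 are nearly alike, so nothing is read from these shares. The word is in capitals, and each stretch runs 5′ to 3′ on the strand of its gene.
CXCL8, chr4:73740448-73740516: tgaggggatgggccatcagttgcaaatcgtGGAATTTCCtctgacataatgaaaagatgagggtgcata
CXCL1, chr4:73869285-73869353: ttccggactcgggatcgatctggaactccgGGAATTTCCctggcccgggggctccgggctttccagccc
CXCL2, chr4:74099234-74099302: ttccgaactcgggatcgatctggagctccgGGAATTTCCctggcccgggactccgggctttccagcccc
CXCL3, chr4:74038729-74038797: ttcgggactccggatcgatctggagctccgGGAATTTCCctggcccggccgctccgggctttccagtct
ICAM1, chr19:10270904-10270972: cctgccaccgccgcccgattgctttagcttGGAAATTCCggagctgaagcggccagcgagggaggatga
NFKBIA, chr14:35404792-35404860: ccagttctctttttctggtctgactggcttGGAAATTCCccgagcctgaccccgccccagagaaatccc
The word began 77 to 91 bases before the start in CXCL8, CXCL1, CXCL2, CXCL3 and NFKBIA and 186 bases before it in ICAM1. A match of letters is no evidence that a factor was bound.

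Of 31 genes of matrix proteases and their inhibitors, 7 were called higher in KO1 and 1, MMP16, in KO2, against 1.87% and 0.744% of all genes, with a median log2 fold change of 0.13. The 7 were the proteases MMP1, MMP3, MMP10, ADAM8 and PLAT and the inhibitors SPINT1 and SERPINB2. MMP1, the interstitial collagenase at chr11:102789401-102798160, was the most abundant gene called, at 1756, 1679.6 and 1706 CPM in KO1 and 360.3, 363 and 376 CPM in KO2 (4.64-fold, log2 2.21 ± 0.03, adjusted p = 4.13e-17, edgeR). WT, at 1585 to 1665 CPM, was near KO1, and the treated pools held 1290.1 to 1789 and 297 to 341 CPM. MMP3, or stromelysin 1, was 10.6 to 12.9 CPM in KO1 and 5.10 to 5.89 CPM in KO2, and there WT (3.79 to 6.32 CPM) was at the level of KO2. ADAM8, a membrane sheddase, was 72.7 to 80.1 CPM in KO1 and 19.1 to 20.6 CPM in KO2. The protease inhibitor SPINT1 was 0.817 to 0.947 CPM in KO1 and 0.0258 to 0.109 CPM in KO2, with WT at 8.13 to 9.69 CPM.

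Of 44 laminins, integrins and collagens, ITGB3 was called higher in KO1, and ITGB4, ITGB8 and COL6A3 in KO2. Of all genes 1.87% and 0.744% were called in these directions, so the 1 gene higher in KO1 is near the background. ITGB4, the integrin of hemidesmosomes, was 56.4, 54.3 and 56.4 CPM in KO2 and 24.5, 24.4 and 20.5 CPM in KO1, against 74.3 to 79.6 CPM in WT. Of 18 epithelial genes, ELF3, an epithelial transcription factor, and the tight junction claudins CLDN1 and CLDN7 were higher in KO1. Of 19 mesenchymal genes, SPARC, SNAI2 and S100A4 were called higher in KO2 and 0 in KO1, with 9 members above 0, 10 below and a median of -0.10. At the adjusted p alone 6 were higher in KO2 and 2, CALD1 and LOX, in KO1, beside 5.54% and 7.06% of all genes. By that rule 9 of the 18 epithelial genes were higher in KO1 and 1 in KO2. SNAI2, a repressor of epithelial genes, was 27.0, 27.7 and 29.1 CPM in KO2, 16.5, 14.8 and 16.6 CPM in KO1 and 13.5 to 15.2 CPM in WT. The calls of COL6A3, ELF3 and SPARC were not stable, and that of SPARC was also lost in DESeq2 (adjusted p = 0.00126) and in an edgeR fit of the 12 KO libraries (0.00117). COL6A3 had adjusted p-values (edgeR) of 0.00110 to 0.00450 without any one of the KO1 libraries or KO2 replicate 1 or 2, and SPARC 0.00178 to 0.00390 without any one of the KO1 libraries or KO2 replicate 1 or 3. For ELF3 they were 0.00134 without KO1 replicate 2 and 0.00134 without KO2 replicate 1.

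Beside the same shares of all genes, 1.87% and 0.744%, 5 of 44 genes of the interferon response list were higher in KO1 (RSAD2, BST2, GBP4, IFITM1 and MX1) and 0 in KO2. BST2, which tethers budding virus, was 4.82 to 5.26 CPM in KO1, 1.98 to 2.48 CPM in KO2 and 15.8 to 16.5 CPM in WT. Of 66 KRAB zinc finger genes of chromosome 19, which mostly repress retroelements, 5 were higher in KO1 and 0 in KO2, led by ZNF702P, a pseudogene, and by ZNF43, at 8.72 to 8.95 CPM in KO1, 2.86 to 3.72 CPM in KO2 and 6.19 to 6.40 CPM in WT. The median of the 66 was -0.053, with 28 above 0 and 38 below, so the list as a whole did not lean to KO1. The 24 NRF2 targets had a median of 0.023, with 13 above 0 and 11 below, and 3 were called higher in KO2 and 0 in KO1. These were NQO1, the quinone reductase, at 338, 320.2 and 325 CPM in KO2 and 204, 181 and 217 CPM in KO1, and the ketosteroid reductases AKR1C1 and AKR1C3, which are paralogs. Of 32 FoxO targets, TNFSF10, the death ligand TRAIL, was higher in KO1 and the sestrin SESN3 and the kinase PDK4 higher in KO2, beside 1.87% and 0.744% of all genes. Without KO2 replicate 3, or without any one of the KO1 libraries, TNFSF10 had an adjusted p of 0.00109 to 0.00421 (edgeR).

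Lists tied to growth held few genes called between the pools, and more at the adjusted p alone. No member was called among 43 S phase, 54 G2/M, 41 DNA replication, 54 MYC target, 74 ribosomal protein or 40 oxidative phosphorylation genes. Of all genes 1.87% were called higher in KO1 and 0.744% in KO2, so 0 in lists of this size is read as no result. MYC itself was 320.5, 324 and 335 CPM in KO1 and 225, 216 and 242 CPM in KO2, on either side of WT at 268 to 295 CPM. Its log2 fold change of 0.51 ± 0.04 (adjusted p = 1.91e-08, edgeR) was below the fold threshold. At the adjusted p alone 12 of the 54 MYC targets were higher in KO1 and 0 in KO2, with a median of 0.12. At the same adjusted p, 13 of 54 G2/M, 8 of 43 S phase and 5 of 41 DNA replication genes were higher in KO2 and 0 of each in KO1, beside 5.54% and 7.06% of all genes. Their medians were -0.10, -0.077 and -0.0093. Also, 15 of 30 genes of the ATF4 amino acid response were higher in KO1 and 1 in KO2 at the adjusted p alone, among them DDIT3 (0.48), TRIB3 (0.48) and ATF4 (0.32), and CTH, which makes cysteine, was the 1 member called. Without KO1 replicate 2 its log2 fold change fell to 0.52, under the threshold. The AKT, PI3K and phosphatase genes had 0 of 17 called, with AKT1 at 139 to 145 CPM in KO1 and 126 to 137 CPM in KO2 (log2 0.08 ± 0.03). At the adjusted p alone 1 of the 17 was higher in KO1 and 5 in KO2, beside 7.06% and 5.54% of all genes. PIK3R1 (-0.43), a regulatory subunit of PI3K, was among the 5. The GPS2 complex and its ubiquitin partners had 0 of 12 called, and in lists this small counts of 0 or 1 are also read as no result. CCND2, the D-type cyclin, was the 1 of 13 cyclins and CDK inhibitors called, at 77.9 to 84.6 CPM in KO1, 43.2 to 46.2 CPM in KO2 and 176 to 182 CPM in WT. In all, 16 of the 39 pathway lists had no member called and 10 had 1, among them AREG, the EGF receptor ligand (2.38-fold higher in KO1), MT1A, a metallothionein, and NUAK2, a YAP target whose log2 fold change was 0.55 without KO1 replicate 2 and 0.54 without KO2 replicate 3.

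The treated libraries measured the pools a further time, with no library shared. KO1+MK and KO2+MK differed in 179 genes higher in KO1+MK (1.15%) and 76 higher in KO2+MK (0.488%). Without KO2+MK replicate 2 these were 105 and 46, and a fit of all 18 libraries gave 271 higher in KO1+MK. Of the 408 genes called untreated, 217 were called in the same direction, which was 53.2% of the untreated and 85.1% of the treated calls, and 0 were called in the opposite one. The direction was kept in 406 of the 408, and in 383 the treated libraries did not overlap, where over all genes tested KO1+MK lay wholly above KO2+MK in 18.6% and wholly below it in 17.4%. Across genes, which are not independent replicates, log2 fold changes with and without MK2206 had a Pearson's r of 0.77 over all genes and 0.94 over the 408. The treated libraries were shallower, and leaving out KO2+MK replicate 2 lowered the calls shared by both treatments to 134. Chemokines and cytokines had 13 of 23 members higher in KO1+MK, with a median of 1.12, and IL11 was higher in KO2+MK.

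**Figure D3:**
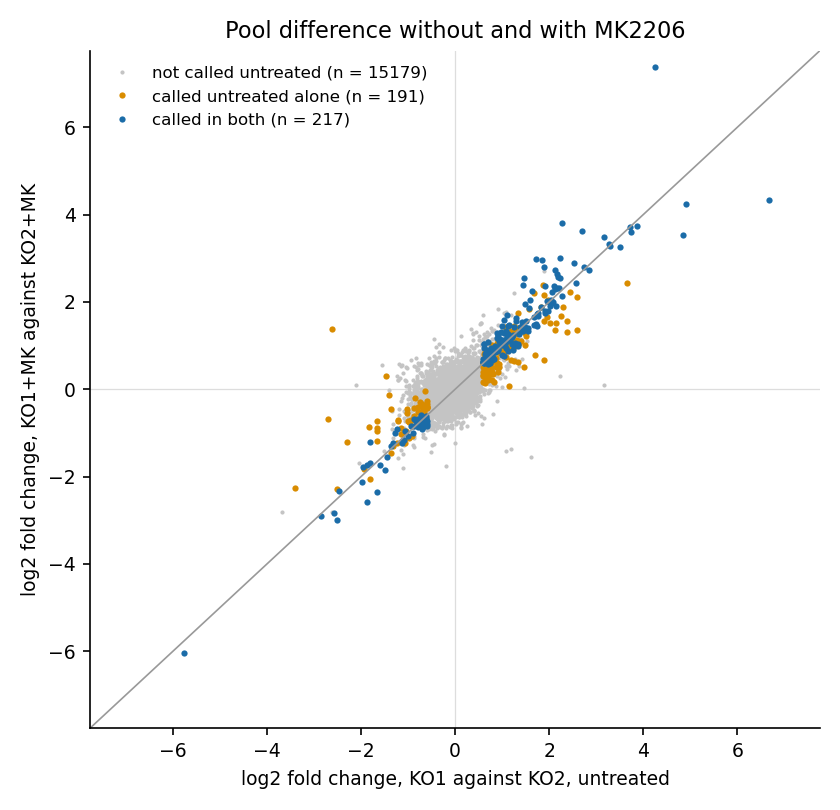
Log2 fold change of KO1 against KO2 untreated (horizontal) and with MK2206 (vertical) for each gene tested, with the line of equal values. The 217 genes called in both lie along the line, 191 genes were called untreated alone, and IL13RA2 is the point farthest to the lower left.

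The difference between the pool differences, tested as an interaction over the 12 KO libraries, passed the adjusted p of 0.001 for 2 genes (0.0128% of those tested) and 0.05 for 38 (0.244%). The 2 genes, DUSP1 and CCN2, were not called untreated, and without any one of the untreated KO libraries or KO1+MK replicate 3 only DUSP1 passed 0.001, with CCN2 at an adjusted p of 0.00112 to 0.00163 (edgeR). Of the 408 genes, 6 passed 0.05. CSF1, CSF2 and CSF3 had larger pool differences with MK2206 (interaction log2 0.44, 1.27 and 1.13, adjusted p = 0.0155, 0.0169 and 0.0403, edgeR; for CSF1 0.0599 to 0.0652 without KO1 replicate 1, KO1 replicate 3 or KO2+MK replicate 2), and GATA6, NFKBIE and CEP97 smaller ones. CSF2 was 11.1 to 12.6 CPM in KO1+MK and 1.34 to 1.78 CPM in KO2+MK, against 9.58 to 13.4 and 2.89 to 3.92 CPM untreated, so KO2 was the pool in which its level was lower with the inhibitor.

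Set beside the parental line, the genes of each direction differed in where WT lay. Of the 292 genes higher in KO1, the mean of WT was at or above KO1 in 200, between the pools in 79 and at or below KO2 in 13. Their median log2 fold change was -0.34 for KO1 against WT and -1.43 for KO2 against WT, and 100 were called lower and 29 higher in KO1, and 244 lower and 1 higher in KO2. Of the 116 genes higher in KO2, WT was at or above KO2 in 12, between the pools in 63 and at or below KO1 in 41. Their medians were -0.33 for KO1 and 0.69 for KO2 against WT, with 34 called lower and 10 higher in KO1, and 53 higher and 3 lower in KO2. Over all genes tested, 9.28% were called lower and 4.59% higher in KO1, and 11.2% lower and 5.56% higher in KO2. Both sets of values share the WT libraries and are given side by side with no test.

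By position, chromosome 11 stood out. It held 53 of the 292 genes higher in KO1 among its 866 genes tested, and its median log2 fold change was 0.17 untreated and 0.18 treated, where no other autosome or X had a median beyond 0.1 in size. Over 608 windows of 25 consecutive genes the medians ran from -0.36 to 0.46, and 23 windows exceeded 0.2 in size. The longest run was of 8 windows, 200 genes over 39.7 Mb at chr11:90131515-129860003 (hg38), from NAALAD2 to TMEM45B. The stretch was chosen for its untreated window medians, each above 0.2, so its untreated values are a description, and the treated libraries had no part in the choice. In it 181 of 200 genes lay above 0 untreated and 189 treated. The median log2 fold change was 0.39 untreated and 0.39 treated, a 1.31-fold difference, and KO1 lay wholly above KO2 in 165 genes, or 82.5% (25.4% over all genes). At the adjusted p alone 128 genes were higher in KO1 and 2 in KO2 (7.06% and 5.54% over all genes), and 32 and 1 were called (1.87% and 0.744%). In the treated libraries 19 were called higher in KO1+MK, against 1.15% of all genes.

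Read against the mean of WT, the median ratio over the 200 genes was 0.962, 0.981 and 0.977 in the KO1 libraries and 0.742, 0.748 and 0.738 in the KO2 libraries. The treated libraries gave 0.925 to 0.969 for KO1+MK and 0.720 to 0.733 for KO2+MK, and the WT libraries 0.994 to 1.00. Both pools lay below the untreated parental libraries without overlap, KO2 farther than KO1, and there is no treated parental library to set beside the treated pools. In the stretch MMP1 (log2 2.21), MMP3 (1.13), MMP10 (1.03) and NNMT, a nicotinamide methyltransferase (2.54), exceeded its median by far. Closer to it were CASP4, an inflammatory caspase, at 98.1 to 99.3 CPM in KO1 and 58.8 to 62.2 CPM in KO2, HYOU1, a chaperone of the endoplasmic reticulum, at 590.0 to 609 and 369.7 to 402 CPM, DDX10, an RNA helicase (0.61), and the adhesion proteins MCAM (0.73) and ESAM (0.63). ESAM, at 299 to 316 CPM in KO1 and 189.7 to 205 CPM in KO2, made up most of the 8 endothelial markers. The 8 summed to 304 to 318 and 201 to 216 CPM, scaled to total counts and so not exactly on the scale of ESAM. PECAM1, which defines that type, was higher in KO2 (3.82 to 4.21 against 1.56 to 1.89 CPM). SESN3 was the 1 gene of the stretch called higher in KO2, at 12.6 to 13.8 CPM against 5.33 to 6.17 CPM in KO1. Among the 22 chemokine, cytokine and NF-kB genes, only BIRC3 lay in the stretch. The other 666 genes of chromosome 11 had a median of 0.13, and 21 were called higher in KO1.

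**Figure D4:**
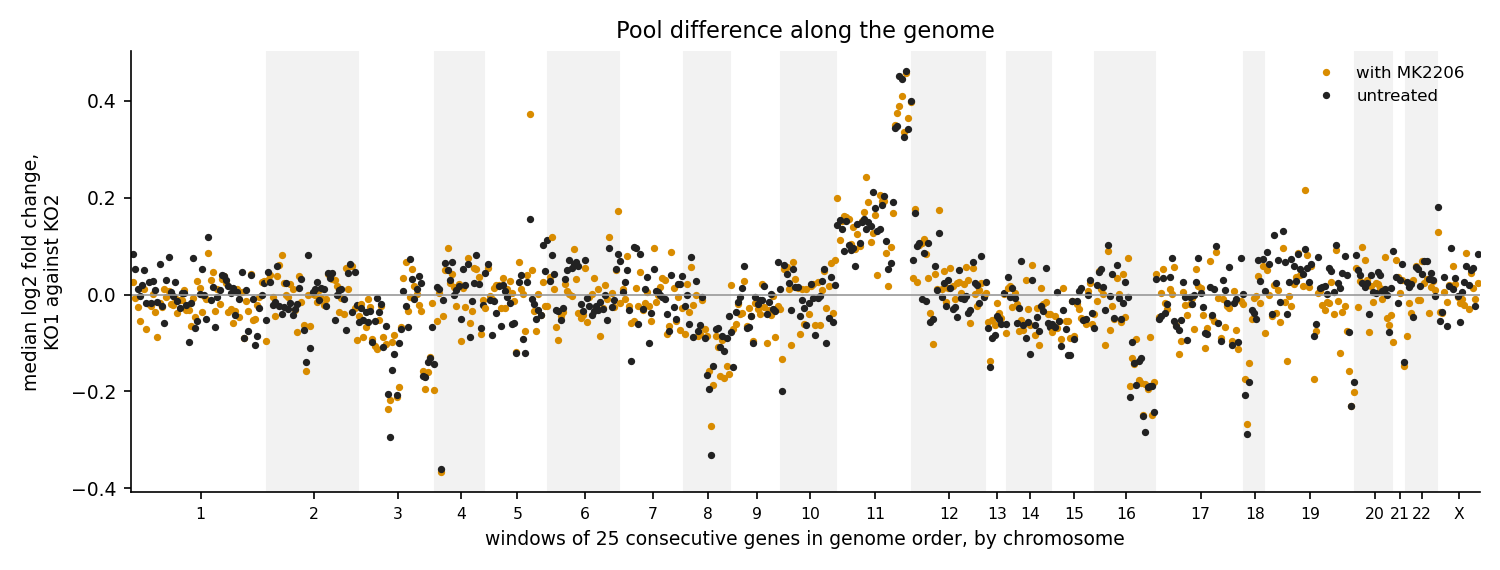
Median log2 fold change of KO1 against KO2 over windows of 25 consecutive genes in genome order, untreated in black and with MK2206 in orange, with chromosomes shaded alternately. The windows on the long arm of chromosome 11 reach 0.46, and windows on several other chromosomes lie below -0.2 in both treatments.

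**Figure D5:**
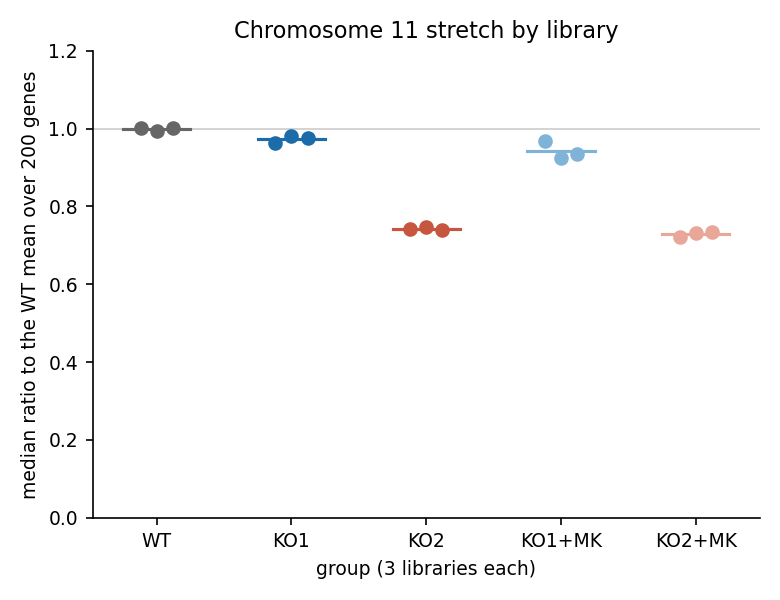
Median ratio to the mean of WT over the 200 genes of the chromosome 11 stretch in each of the 3 libraries of WT, KO1, KO2, KO1+MK and KO2+MK, with a bar at each group mean. The KO2 libraries lie at 0.738 to 0.748 and the KO2+MK libraries at 0.720 to 0.733, below every other library.

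Windows with a median below -0.2 formed shorter runs. The runs of 2 windows lay at chr3:52198086-58537283 (ALAS1 to ACOX2, 50 genes, median -0.25), chr16:69355567-74774831 (TERF2 to FA2H, 50 genes, -0.27) and chr18:158383-9538114 (USP14 to RNU2-27P, 50 genes, -0.25). With MK2206 their medians were -0.22, -0.23 and -0.20. The chromosome 18 run held LPIN2, a phosphatidate phosphatase, at 203 to 209 CPM in KO1 and 305 to 323 CPM in KO2, and L3MBTL4, and the chromosome 16 run held NQO1. Window medians untreated and treated had a Pearson's r of 0.86 over the 608 windows, as a description across neighbouring genes.

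Around GPS2, within 500 kb on either side, 43 genes were tested and 2 were called, where the share over all genes was 1.87% higher in KO1 and 0.744% in KO2, so the count is read as no result about the locus. They were CLDN7 (0.79) and DNAH2, an axonemal dynein (0.76), both higher in KO1. The median of the 43 was -0.019.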

How the data were processed

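The authors trimmed reads with Trim Galore, aligned them to hg38 with HISAT2 and counted them per gene with featureCounts (the submitters' processing notes and the study's methods; versions not given in the sources used here). The deposited unit is the count per gene, not normalized. Strand handling is not given there. Identifiers were named through GENCODE release 44 (56948 of 57448 matched). The methods filter was kept, with edgeR 4.0.16 (R 4.3.3, TMM, quasi-likelihood test, Benjamini-Hochberg adjustment) in place of DESeq2 1.42.0, which was an alternative. Each pair of groups was fitted alone; a gene was called at an adjusted p of 0.001 or less and a fold change of 1.5 or more. CPM of single genes use TMM library sizes over the genes tested, and summed marker CPM use total counts, so their scales differ slightly. Depth was 23419198 to 39319910 counts in the libraries compared. On simulated data for KO1 against KO2, untreated (15586 genes), 28 of 68 genes changed 1.5-fold were called, 62 of 68 at 2-fold and 64 of 64 at 4-fold, with 1 false call. Members and gene lists were chosen with earlier results of these data known. Named by rule were GPS2, AKT1 and MYC, the 10 largest changes each way among called genes with a mean of 100 counts or more in the higher pool and no overlap, the 5 most abundant called genes and up to 2 called members per list. Other list members named were chosen after their values were seen. Positions were summarised by chromosome, not by arm as planned, since no table of arms was used here. Replicate numbers did not pair the libraries: deviations of same-numbered libraries correlated at 0.0077 to 0.12 untreated and -0.32 to -0.10 treated. Results for some genes are not reported here.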

Additional observations from a re-analysis of the deposited data

Results flagged for a closer look

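The difference between the pools was itself tested for a difference with MK2206, by the interaction over the 12 KO libraries in edgeR. DUSP1 and CCN2 passed an adjusted p of 0.001, and CSF1, one of the 5 most abundant genes called, was among the 38 that passed 0.05. DUSP1, a phosphatase of MAP kinases, was 95.5 to 102 CPM in KO1 and 87.3 to 93.8 CPM in KO2 untreated, and 115 to 121 CPM in KO1+MK and 154 to 162 CPM in KO2+MK, an interaction of -0.55 (log2, adjusted p = 5.93e-05). CCN2, a YAP target, was 478 to 487 and 478 to 494 CPM untreated and 612 to 627 and 822 to 849.7 CPM treated, an interaction of -0.41 (adjusted p = 0.000175). CSF1 was 398 to 410.1 and 243 to 290.0 CPM untreated and 399.9 to 451 and 200.1 to 205 CPM treated, an interaction of 0.44 (adjusted p = 0.0155). In each gene the treated pools did not overlap. The sign and size held without each library in turn, but not every adjusted p stayed under its threshold: without any one of the untreated KO libraries or KO1+MK replicate 3 the adjusted p of CCN2 was 0.00112 to 0.00163, and that of CSF1 was 0.0624, 0.0652 and 0.0599 without KO1 replicate 1, KO1 replicate 3 and KO2+MK replicate 2 (edgeR). DUSP1 passed the adjusted p of 0.001 in each.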

How the results depend on the processing

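Over the choices tried, no fold change of the 61 genes named by rule changed sign, and the other genes named were not followed. Of 968 such values, 910 stayed on the same side of the threshold and 58, in 25 genes, were no longer called. For the untreated comparison (292 higher in KO1, 116 in KO2), testing every gene with 1 count gave 443 and 195, a test against the fold threshold itself (glmTreat) 89 and 29, the adjusted p alone 1100 and 864, and an adjusted p of 0.05 gave 418 and 316, which lowered the share higher in KO1 from 71.6% to 56.9%. DESeq2 gave 285 and 116. Without 1 library the counts were 238 to 283 and 86 to 141. For the treated comparison (179 and 76), a fit of all 18 libraries gave 271 higher in KO1, and leaving out 1 library gave 105 to 217 and 46 to 83, both lowest without KO2+MK replicate 2. Genes called in both treatments (217) came to 675 at the adjusted p alone, 392 at an adjusted p of 0.05, and 134 to 230 without 1 library. The interaction (2 genes) gave 22 in DESeq2, 38 at an adjusted p of 0.05, and 1 to 5 without 1 library. At the adjusted p alone, 19 inflammatory and NF-kB genes and 128 genes of the chromosome 11 stretch were higher in KO1, and glmTreat called 7 of the stretch. The replicate numbers do not pair the libraries. A replicate block gave 324 and 167 untreated, 89 and 41 treated, 117 in both treatments and 1 for the interaction. The alternatives that leave out a library for the interaction and for both treatments, and the list and stretch counts under each choice, were chosen after seeing the data. The cause of these changes was not tested. Genes near 1 CPM rest on few counts, and 183 of the 408 were under 5 CPM in the higher pool.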
